A study of Mus musculus with 16 samples.

Results

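The genotype comparison in the oldest mice of a mutant Twinkle study was made on the 8 arrays labelled 24 to 26 months, out of 16 arrays in all. They were chosen by the age and replicate number in the sample labels, and each side has 2 replicate numbers per region, bio rep 1 and bio rep 2. Cerebellum and hippocampus were each represented by 2 mutant and 2 wt arrays, so 4 mutant arrays stood against 4 wt arrays with region as a term. All 4 mutant arrays and the wt arrays of replicate 2 came from mice of 24 months, and the wt arrays of replicate 1 from mice of 26 months. Mutants are labelled as overexpressing mutant Twinkle, and controls as wild type (wt). The promoter driving the transgene, the strain, the sex and whether the regions share mice are not given in the labels used here. The labels call the samples biological replicates without naming separate animals. Within a region the wt replicates differ in age, so they came from different mice. For the mutants this is not settled, so a p-value here reflects only how these samples spread, which may be partly technical. The remaining 8 arrays, labelled 21 to 23 months, serve here only to show where the older mice differ.

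Twinkle, the product of Twnk, unwinds mitochondrial DNA ahead of the mitochondrial polymerase. Dominant mutations in it cause progressive external ophthalmoplegia, in which deleted mitochondrial genomes build up with age and respiratory-chain-deficient cells appear in muscle and brain. The mice were made as a model of that disease, and the comparison asks how gene expression in the brain differs between mutant and wt mice late in life.

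Every deposited value is a log value, taken here as log2, set against the median of the arrays of its region. A value of 0 is therefore the middle array, no level of expression is left, and levels cannot be compared between regions or between genes. The same centring means that the labelled region of an array cannot be checked against the level of its defining markers, only against the other arrays of that region. The array of wt hippocampus replicate 1 stood apart on that measure. Its mean over 14 cerebellar granule neuron markers was 1.75 and over 12 Purkinje cell markers 1.31, while its mean over 13 markers of CA1 to CA3 pyramidal neurons was -0.53. Its gene values had a standard deviation of 0.262, against 0.0999 to 0.147 on the other 7 older arrays. Mutant hippocampus replicate 1 carried a mean of 1.07 for 20 genes of meninges and fibroblasts and 0.57 for the granule neuron markers, and on mutant cerebellum replicate 2 the CA1 marker Spink8 was at 3.24. In bulk tissue, fewer cells of a type and less RNA per cell cannot be told apart. Of the sex-linked transcripts, Xist lay between -0.24 and 0.24 on the older arrays. The mean of 3 Y-linked genes was 0.14 and 0.03 in mutant cerebellum against -0.03 and 0.01 in wt. In the hippocampus it was 0.03 and 0.09 in mutants against -0.06 and -0.04 in wt. The mean thus lay higher in mutants in both regions, but only 1 of the 3 genes did so on its own. Over both regions the probe sets of Kdm5d differed by 0.37, 0.12 and 0.10, those of Uty by -0.01 to 0.10 and those of Eif2s3y by 0.07.

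No gene passed an adjusted p of 0.05 in the older mice. Over both regions, limma called 0 of 18168 genes after Benjamini-Hochberg adjustment, which is 0.0% of the genes tested, and the smallest adjusted p was 0.169. At an unadjusted p under 0.05 there were 877 genes (4.83%), of which 543 (2.99%) were higher in mutants and 334 (1.84%) lower, against 908.4 expected by chance alone. Without wt hippocampus replicate 2 the number was 1331. The median standard error of a difference was 0.0709, and the number of arrays limits this precision. The values below therefore describe the arrays, and none of the differences named passed the test in the older mice.

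Alas2 had the smallest p of all genes, and it lay lower in every mutant array. It encodes the erythroid form of the first enzyme of haem synthesis. In the cerebellum it was at -0.34 and -0.25 in mutants and at 0.47 and 0.19 in wt mice (replicates 1 and 2). In the hippocampus it was at -0.27 and -0.33 in mutants and at 0.37 and 0.27 in wt mice. The genotypes did not overlap in either region, with means of -0.30 ± 0.04 in mutants and 0.33 ± 0.12 in wt mice over both regions (SD, n = 4). The difference, mutant minus wt, was -0.62 (SE 0.07, limma adjusted p = 0.17) and was -0.62 in each region. It ranged from -0.72 to -0.53 over the alternatives run, with a smallest adjusted p of 0.0719 in limma. With both regions averaged per replicate number, which allows for regions that share mice, the smallest limma adjusted p of any gene was 0.864.

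The rest of haem synthesis did not share this difference. Of 8 measured genes of the pathway, 5 lay above 0 and 3 below, with a median of 0.01 against 0.02 for all genes. Alas1, the housekeeping form of the same enzyme, differed by 0.04 and ferrochelatase, Fech, by 0.03. Alas2 also stands on the list of blood cell genes. Over the 11 measured genes of that list, 7 were above 0 and 4 below, and its mean on the older arrays lay between -0.04 and 0.13 with the genotypes overlapping. The globin genes did not move together: Hbb-b2 differed by -0.29 (SE 0.09), Hba-a1 by 0.01 and Hba-a2 by 0.19 (SE 0.07). Globin genes have near-identical copies, so which copy each probe set reads is uncertain. The part of blood in the Alas2 difference was not tested.

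The stretch before the start of Alas2 is shown because it is the gene of smallest p. It is taken from RefSeq's annotation of GRCm38.p6, chrX:150547167-150547416 on the plus strand, as are the other promoters below. The capitals mark GATAA on the minus strand, the core read by erythroid GATA factors, 86 bases before the start. On either strand, 23.0% of 27025 promoters, 1 per gene and of the same 250 bases, hold it.
Alas2: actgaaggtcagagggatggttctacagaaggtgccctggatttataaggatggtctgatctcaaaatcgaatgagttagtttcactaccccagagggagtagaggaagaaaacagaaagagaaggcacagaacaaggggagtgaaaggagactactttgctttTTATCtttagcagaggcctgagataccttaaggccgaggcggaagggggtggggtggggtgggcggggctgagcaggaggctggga

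Coq10b was next among the genes lower in mutants. Its product binds coenzyme Q, the electron carrier between the respiratory complexes. It was at -0.04 and -0.28 in mutant cerebellum against 0.20 and 0.34 in wt, and at -0.03 and -0.14 in mutant hippocampus against 0.60 and 0.42 in wt. All 4 mutant arrays lay below all 4 wt arrays, by a mean difference of -0.51 (SE 0.08, limma adjusted p = 0.86). Both of its probe sets differed in the same direction in each region, at -0.43 and -0.43 in the cerebellum and -0.70 and -0.49 in the hippocampus. Leaving out any array or changing the processing moved the difference between -0.60 and -0.42.

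Dusp4, a nuclear phosphatase that switches off MAP kinases and is itself induced by them, followed. It lay at -0.15 and -0.21 in mutant cerebellum against 0.11 and 0.55 in wt, and at 0.09 and -0.14 in mutant hippocampus against 0.35 and 0.69 in wt. The difference was -0.53 (SE 0.11, limma adjusted p = 0.86). It was -0.34 without both wt arrays of replicate 2, which held the highest value in each region. Cep170, a centrosomal protein, was at -0.34 (SE 0.07), with both of its probe sets lower.

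The other 8 of the 12 genes of smallest p on the lower side differed by less, from -0.27 to -0.21. Several act in RNA handling or membrane traffic. Cnot6l, a catalytic subunit of the CCR4-NOT deadenylase, differed by -0.27 (SE 0.07) and Ythdc2, an RNA helicase that binds methylated RNA, by -0.23 (SE 0.05). The nuclear pore gene Nupl1 was at -0.23 and the RNA-binding zinc finger gene Zfp326 at -0.26. Exoc5, a subunit of the exocyst that tethers vesicles to the plasma membrane, was at -0.26, with probe sets at -0.45 and -0.08. Mon2, which acts in traffic between endosomes and the Golgi, was at -0.21. Nab2, a corepressor of the EGR transcription factors, was at -0.23, and Tspyl1 at -0.22. No gene list was written for RNA handling or traffic, so nothing is read from their shared functions.

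On the higher side Dnah5 led, an outer arm dynein heavy chain of motile cilia. It was at 0.18 and 0.16 in mutant cerebellum against -0.07 and -0.14 in wt, and at 0.13 and 0.23 in mutant hippocampus against -0.15 and -0.27 in wt. The difference of 0.33 (SE 0.06, limma adjusted p = 0.86) came from 1 probe set. Crygn, a gamma-crystallin, was at 0.31 and 0.29 against 0.09 and -0.08 in the cerebellum and at 0.31 and 0.16 against -0.08 and -0.19 in the hippocampus, a difference of 0.33 (SE 0.06). Veph1, which has a pleckstrin homology domain, had the widest of the 12 differences at 0.36 (SE 0.07).

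Several of the remaining genes on the higher side are best known from tissues other than brain. Prl2a1, of the placental prolactin family, differed by 0.34, Psg-ps1, a pregnancy-specific glycoprotein pseudogene, by 0.28 and Mageb3, of the MAGE family, by 0.25. The transcription factor genes Pou2f2 and Hmx1 were at 0.24 and 0.27, the ribosome biogenesis helicase Dhx37 at 0.29 and Mfsd9, of a transporter family, at 0.31. The clones 6430562O15Rik and 4930558K02Rik were at 0.34 and 0.27. Of the 12 genes 11 rested on 1 probe set, and without a level of expression it cannot be said whether their signals were above background. On the lower side 5 of the 12 rested on 1 probe set.

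All 24 of these genes lay fully apart by genotype in both regions, which their choice by smallest p favours. Over all genes, mutants lay above wt in both regions for 668 (3.68%) and below for 418 (2.3%), together 1086 (5.98%). Twnk itself was among the first group. It was at 0.00 and 0.01 in mutant cerebellum against -0.01 and -0.15 in wt, and at 0.03 and -0.01 in mutant hippocampus against -0.09 and -0.11 in wt. The difference was 0.10 (SE 0.05, limma adjusted p = 0.86). It rests on 1 probe set, whose place in the transgene's transcript is unknown, so Twnk cannot serve as a check of genotype.

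**Figure D1:**
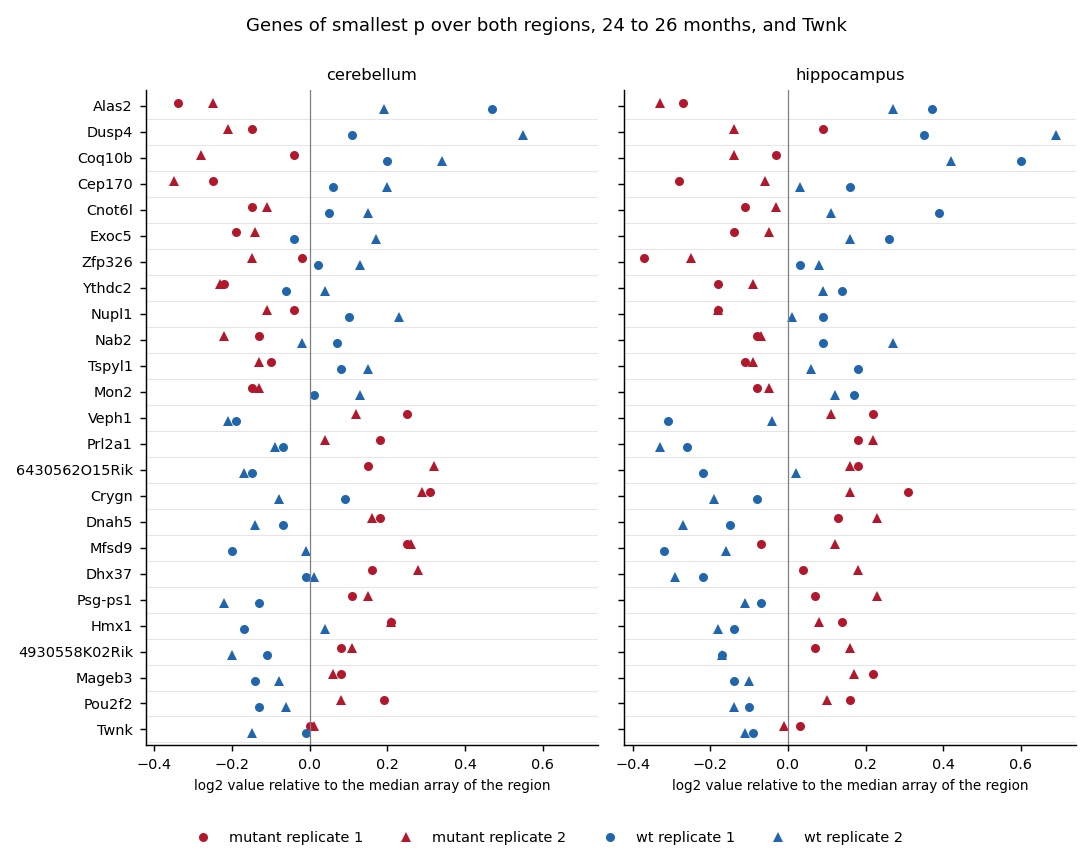
Value of each of the 24 genes of smallest p over both regions, and of Twnk, on the 8 older arrays. The horizontal axis is the log2 value relative to the median array of the region, colour is genotype and the marker shape is the replicate number. For every gene the red mutant points lie on one side of the blue wt points in both panels, with Alas2 between -0.34 and -0.25 in mutants and between 0.19 and 0.47 in wt mice.

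The list of immediate early genes, which neurons and other cells switch on within minutes of a stimulus, leaned lower in mutants. Of 31 measured genes, 24 were below 0 over both regions and 7 above, with a median of -0.15, whereas 57.9% of all genes were above 0 and their median was 0.02. At an unadjusted p under 0.05, 5 of the 31 were lower and 0 higher, against 1.84% and 2.99% of all genes. These were Dusp4, Homer1, Dusp5, Fosb and Ptgs2. In the hippocampus 26 of 31 were below 0, with a median of -0.21, and 8 had an unadjusted p under 0.05 on the lower side (2.69% of all genes). Of all genes 59.5% were above 0 in the hippocampus. In the cerebellum 16 were below 0 and the median was 0.00.

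In the hippocampus the leading genes of this list were Ptgs2, the inducible enzyme of prostaglandin synthesis, and Fosb, a subunit of the AP-1 transcription factor. Ptgs2 was at -0.04 and -0.20 in mutants and 0.93 and 0.57 in wt mice, a difference of -0.87 (SE 0.12, limma adjusted p = 0.60). Fosb was at 0.03 and -0.30 in mutants and 0.65 and 0.82 in wt mice, a difference also of -0.87 (SE 0.12, limma adjusted p = 0.60). In the cerebellum the same genes differed by -0.05 and -0.11, with the genotypes overlapping for Fosb. Other members spread too widely within a genotype to order the groups: hippocampal Fos was at 0.79 and -1.16 in mutants and 0.54 and 1.23 in wt mice, and Npas4 at 1.82 and -0.90 against -1.21 and 1.84.

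The lean of this list depended on which arrays were used. Its mean in the hippocampus was 0.35 and -0.22 on the mutant arrays and 0.17 and 0.69 on the wt arrays, so that the genotypes overlapped. Without wt hippocampus replicate 1, the array with the cerebellar markers, all 31 members were below 0 in the hippocampus with a median of -0.48. Without wt hippocampus replicate 2 the median was -0.03 with 16 of 31 below 0. Over both regions the median was 0.04 without both arrays of wt replicate 2 and -0.02 without both arrays of mutant replicate 2.

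Promoters of 3 genes that hold the core of the cAMP response element are shown. The core is TGACG on either strand, where CREB family factors bind. Among 24 list members with a RefSeq promoter it is held by 15 (62.5%), against 17.9% of 27025 promoters, and 2 (8.33%) hold the full palindrome TGACGTCA against 1.62%. Homer1 (chr13:93303507-93303756, plus strand) encodes a postsynaptic scaffold and holds TGACG 56, 40 and 14 bases before the start. In the hippocampus its 6 probe sets disagreed, with differences from -1.60 to 0.21. Fosb (chr7:19310046-19310295, minus strand) holds TGACG 60 bases before the start. The promoter of Ptgs2, also on the list, was searched too, holds no TGACG on either strand and is not shown. Coq10b (chr1:55052520-55052769, plus strand) is not on the list but holds the reverse complement at 173, 72, 61 and 50 bases, with an E-box, CACGTG, directly before the second of them at 78 bases. The capitals mark TGACG or CGTCA, and a match is a description of the letters only.
Homer1: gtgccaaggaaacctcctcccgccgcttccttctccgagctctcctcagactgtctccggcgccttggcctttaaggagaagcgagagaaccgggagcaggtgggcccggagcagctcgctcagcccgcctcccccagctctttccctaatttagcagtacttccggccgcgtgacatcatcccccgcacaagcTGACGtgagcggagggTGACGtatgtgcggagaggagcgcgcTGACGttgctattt
Fosb: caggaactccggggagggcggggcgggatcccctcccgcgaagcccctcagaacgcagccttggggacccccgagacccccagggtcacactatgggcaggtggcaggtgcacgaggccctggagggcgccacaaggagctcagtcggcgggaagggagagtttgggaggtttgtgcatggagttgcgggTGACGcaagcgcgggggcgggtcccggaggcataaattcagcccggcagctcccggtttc
Coq10b: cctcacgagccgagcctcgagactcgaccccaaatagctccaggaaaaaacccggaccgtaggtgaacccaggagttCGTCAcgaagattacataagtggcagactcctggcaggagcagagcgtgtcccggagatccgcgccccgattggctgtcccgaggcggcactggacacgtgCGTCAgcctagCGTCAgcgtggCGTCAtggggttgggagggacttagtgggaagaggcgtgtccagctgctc

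Circadian clock genes leaned lower in mutants. Of 19 measured genes, 16 were below 0 over both regions with a median of -0.14, and the counts were 16 of 19 in the cerebellum (median -0.11) and 13 of 19 in the hippocampus (median -0.17). Without mutant hippocampus replicate 2 the hippocampal median was -0.04, with 11 of 19 below 0. The mean over the list was -0.05 and -0.11 on mutant cerebellum arrays against 0.05 and 0.10 on wt, and 0.03 and -0.10 on mutant hippocampus arrays against 0.08 and 0.12 on wt. The mutants thus lay below the wt arrays in both regions. Of 39 lists with at least 5 measured genes, 4 had means apart the same way in both regions. On the lower side these were the clock list, haem synthesis, which holds Alas2, and mitochondrial biogenesis, and on the higher side the copines. In the cerebellum the copine means were 0.02 and 0.03 in mutants against 0.01 and 0.00 in wt. Those of mitochondrial biogenesis were -0.02 and -0.02 against 0.00 and 0.01. Among the 39 lists in the younger arrays, 5 were apart on the higher side and 2 on the lower.

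Per2 and Ciart, repressors of the clock's own activators, were the leading members of the clock list. Per2 was at -0.36 and -0.36 in mutant cerebellum against -0.05 and 0.56 in wt, and at -0.08 and -0.11 in mutant hippocampus against 0.15 and 0.16 in wt. The difference was -0.43 (SE 0.13, limma adjusted p = 0.86), and -0.27 without wt cerebellum replicate 2. Ciart was at 0.00 and -0.12 against 0.55 and 0.12 in the cerebellum and at -0.01 and -0.22 against 0.16 and 0.22 in the hippocampus, a difference of -0.35 (SE 0.10, limma adjusted p = 0.86). Nr1d2, a nuclear receptor that represses the activator Arntl, differed by -0.23 (SE 0.08), and Arntl by 0.13 (SE 0.08). At an unadjusted p under 0.05, 3 of the 19 were lower over both regions and 0 higher, against 1.84% and 2.99% of all genes. The median over both regions kept its sign under every alternative run, from -0.19 to -0.10. The hour of dissection is not given in the sources used here, and its part in these values was not tested. In the 8 younger arrays the list's median was -0.05.

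Ciart is shown as a leading clock gene whose promoter holds 3 E-boxes, at 116, 58 and 44 bases before the start (chr3:95882229-95882478, minus strand). The capitals mark CACGTG, the E-box that the clock's activators bind. It occurs in 5 of 16 list members with a promoter in the table (31.2%) and in 6.05% of 27025 promoters. A high share was not particular to these lists: of 7 haem synthesis promoters 3 (42.9%) hold the E-box and 5 (71.4%) hold TGACG.
Ciart: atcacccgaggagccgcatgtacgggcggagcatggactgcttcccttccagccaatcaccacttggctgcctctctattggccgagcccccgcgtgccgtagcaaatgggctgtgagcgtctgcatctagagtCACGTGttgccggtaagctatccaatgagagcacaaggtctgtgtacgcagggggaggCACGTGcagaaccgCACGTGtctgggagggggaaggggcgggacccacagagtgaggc

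**Figure D2:**
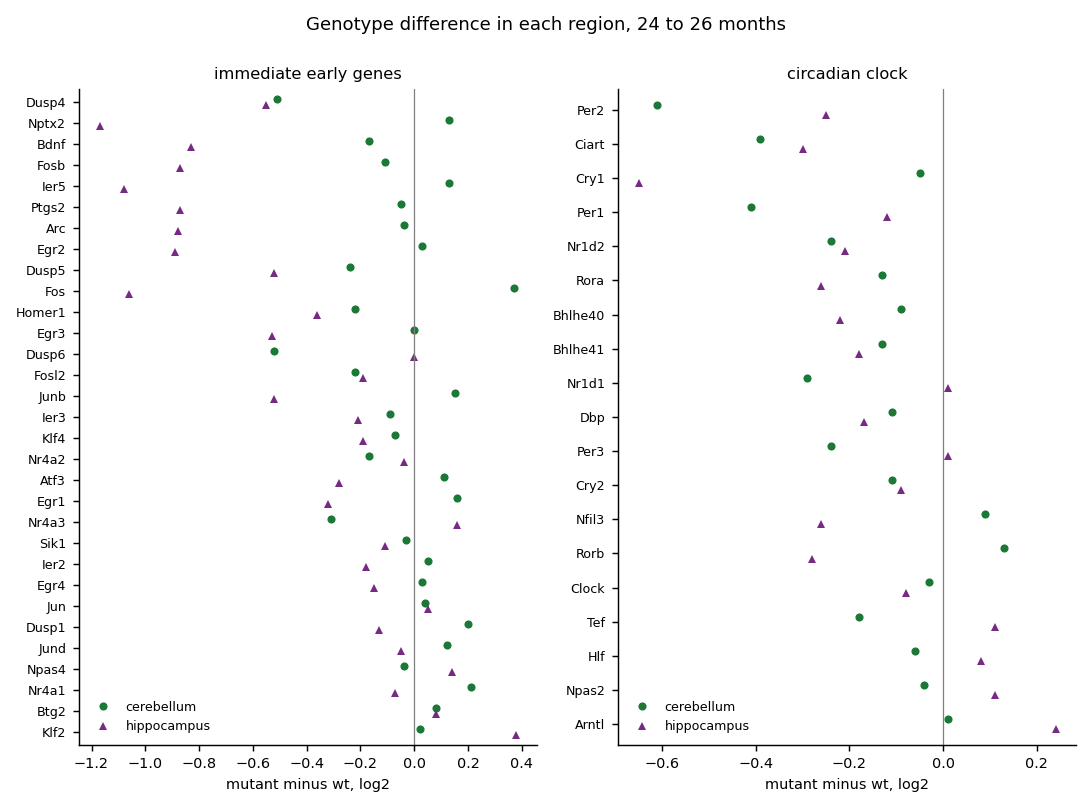
Difference between mutant and wt older mice for each measured immediate early gene (left) and circadian clock gene (right). The horizontal axis is the log2 difference, with green circles for the cerebellum and purple triangles for the hippocampus, and genes are ordered by the difference over both regions. The triangles of the left panel reach -1.17 for Nptx2. Its circles lie on both sides of 0, with that of Dusp4 at -0.51. In the right panel both markers lie below 0 for most genes.

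Nuclear genes for mitochondria were compared because Twinkle acts in the mitochondrion. In the machinery of mitochondrial DNA replication and transcription, 13 of 23 genes were above 0 and 10 below, with a median of 0.01. At an unadjusted p under 0.05 limma picked 0 of the 23, against 4.83% of all genes. The polymerase gene Polg differed by -0.06 (SE 0.09) and the packaging factor gene Tfam by 0.00 (SE 0.07). Genes that supply nucleotides for mitochondrial DNA had 15 of 20 above 0 and a median of 0.05.

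Subunits of the mitochondrial ribosome lay slightly higher in the cerebellum. There, 65 of 76 were above 0 with a median of 0.08, against 51.8% of all genes and a median of 0.00, and in the hippocampus 42 of 76 were above 0 with a median of 0.00. Mrpl23 differed by 0.16 (SE 0.06) over both regions and was fully apart by genotype. Respiratory complex I behaved alike, with 30 of 33 above 0 and a median of 0.09 in the cerebellum and 23 of 33 with 0.02 in the hippocampus. Its subunits Ndufs8 and Ndufa7 were at 0.11 and 0.12 over both regions, and Ndufb4 at -0.17. Both lists rested largely on the cerebellar arrays of replicate 2. Their means were -0.12 and -0.10 on the wt array and 0.10 and 0.09 on the mutant array. Without the wt array the cerebellar medians were 0.01, with 40 of 76 above 0, and 0.03, with 21 of 33. Without the mutant array they were 0.03, with 49 of 76 above 0, and 0.05, with 22 of 33. The means of both lists overlapped between genotypes in the cerebellum. In complexes II to V 30 of 41 genes were above 0 over both regions and in the tricarboxylic acid cycle 19 of 24. Each list had a median of 0.03, while 13 of 16 glycolysis genes were below 0 with a median of -0.03. In the younger arrays mutant means lay above wt means in both regions for the mitochondrial ribosome and complexes I to V. The younger medians over both regions were 0.08 for the ribosome, 0.07 for complex I and 0.05 for complexes II to V. The tricarboxylic acid cycle and glycolysis were not apart in both younger regions, with medians of 0.02 and -0.03.

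Genes that sense energy state or drive mitochondrial biogenesis had 13 of 21 below 0 and a median of -0.05. Sirt1, an NAD-dependent deacetylase, was the leading member. It was at 0.03 and -0.17 in mutant cerebellum against -0.06 and 0.10 in wt, which overlapped, and at -0.08 and -0.17 in mutant hippocampus against 0.26 and 0.35 in wt, which did not. Its difference was -0.26 (SE 0.09, limma adjusted p = 0.86). The catalytic subunits of AMP-activated kinase, Prkaa1 and Prkaa2, differed by -0.19 and -0.18 (SE 0.07 each), and the coactivator gene Ppargc1a by 0.06 (SE 0.06).

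In muscle of mice with mutant Twinkle a stress response of amino acid and folate metabolism is known, driven by ATF transcription factors and with the hormone Fgf21 as its mark. In these brain regions its list was evenly divided, with 15 of 29 genes above 0, 14 below, a median of 0.04 and 0 genes at an unadjusted p under 0.05 by limma. Fgf21 was at 0.06 and 0.11 in mutant cerebellum against -0.10 and 0.17 in wt, and at 0.16 and 0.00 in mutant hippocampus against 0.25 and -0.20 in wt. The genotypes overlapped in both regions, and the difference was 0.05 (SE 0.10). Asns, which makes asparagine, differed by 0.05 (SE 0.06), Psat1, of serine synthesis, by -0.04 (SE 0.06), Mthfd2, of mitochondrial folate metabolism, by 0.05 (SE 0.10) and Trib3 by -0.02 (SE 0.07).

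Markers of cell types differed between single arrays as well as between genotypes. Genes of ependyma and motile cilia had 18 of 21 above 0 and a median of 0.13, with 2 of 21 higher at an unadjusted p under 0.05, against 2.99% of all genes. These were Dnah5 and Ccdc153, the latter at 0.31 (SE 0.11), but the master regulator of motile cilia Foxj1 differed by 0.02 (SE 0.07). The mean of the list overlapped between genotypes in the cerebellum, at 0.07 and 0.16 against 0.16 and -0.09, and its median was 0.05 without both arrays of mutant replicate 2. In the 8 younger arrays the list's median was 0.14, while Dnah5 differed by 0.00 there.

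Meningeal genes had 19 of 20 above 0 and a median of 0.34. In the hippocampus, where 8 of 20 were higher at an unadjusted p under 0.05 (4.47% of all genes), the list's mean was 1.07 on mutant replicate 1 but 0.06 on replicate 2, against -0.13 and -0.05 on wt arrays. Without mutant hippocampus replicate 1 the median over both regions was 0.12. Fbln1, an extracellular matrix protein, was at 0.59 and 0.11 in mutant hippocampus and -0.14 and -0.22 in wt. Cerebellar markers went the other way, with 12 of 12 Purkinje cell genes and 12 of 14 granule neuron genes below 0 and medians of -0.21 and -0.20. Both turned, to 0.05 and 0.06, without wt hippocampus replicate 1. Microglial genes had 16 of 19 above 0 in the cerebellum (median 0.15) and 16 of 19 below 0 in the hippocampus (median -0.16), with 0 of 19 at an unadjusted p under 0.05 by limma in either region. The mean of the microglial list overlapped between genotypes in both regions. Its cerebellar median was 0.02 without mutant cerebellum replicate 2, and its hippocampal median 0.00 without wt hippocampus replicate 1 and -0.04 without mutant hippocampus replicate 1.

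**Figure D3:**
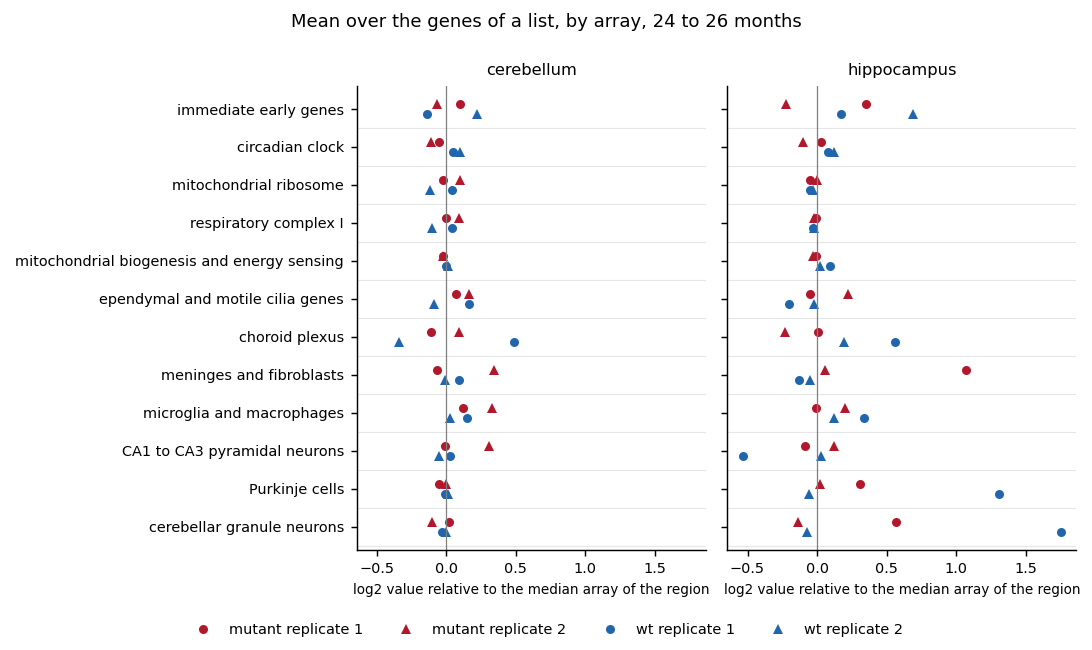
Mean over the measured genes of 12 lists on each of the 8 older arrays, cerebellum left and hippocampus right. The horizontal axis is the log2 value relative to the median array of the region, with colour for genotype and marker shape for replicate number. For the circadian clock red lies left of blue in both panels, while wt hippocampus replicate 1 reaches 1.75 for cerebellar granule neurons and mutant hippocampus replicate 1 reaches 1.07 for meninges.

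In the cerebellum alone 0 of 18168 genes passed in limma, with 603 (3.32%) at an unadjusted p under 0.05, 267 higher in mutants (1.47% of all genes) and 336 lower (1.85%), and a smallest adjusted p of 1. The share higher among them was 44.3%, or 52.9% after quantile normalization. Their number was 332 without wt cerebellum replicate 2 and 1148 without wt cerebellum replicate 1. Pfn1, profilin, which feeds actin filaments, was at -0.19 and -0.25 in mutants and 0.26 and 0.29 in wt mice, a difference of -0.50 (SE 0.07). Gatm, the first enzyme of creatine synthesis, was at 0.01 and -0.01 against 0.41 and 0.33, a difference of -0.37 (SE 0.07). Pcsk1, a convertase that cuts prohormones, differed by -0.44 (SE 0.09) and 1700022A21Rik by -0.40. None of these 4 genes lay fully apart in the same direction in the hippocampus, whereas all 4 did in the cerebellum, as did 32.2% of all genes in either direction. Among genes higher in mutant cerebellum, Gm5817 was at 0.50, 1700017N19Rik at 0.49, the chemokine receptor gene Ccr3 at 0.37 and the zinc finger genes Zfp995 and Zfp954 at 0.35 and 0.30.

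In the hippocampus 1301 genes (7.16%) had an unadjusted p under 0.05, of which 62.4% were higher in mutants, or 52.2% after quantile normalization. limma again called 0 of 18168 (0.0%), with a smallest adjusted p of 0.146. The count of 0 depended on wt hippocampus replicate 2. Without it, and so against the wt array with the cerebellar markers alone, limma called 570 genes, 174 of them higher. The smallest adjusted p belonged to Vgll3, a cofactor of TEAD transcription factors. Vgll3 was at 1.19 and 1.11 in mutants and -0.03 and -0.48 in wt mice, a difference of 1.41 (SE 0.14), and its 3 probe sets differed by 0.91, 1.41 and 1.90. In the cerebellum it differed by 0.08. Its adjusted p in limma was below 0.05 when the least variable genes were left out (0.017). After quantile normalization no gene passed in the hippocampus, with a smallest adjusted p of 0.379, nor with the hippocampus fitted alone (0.774). Without wt hippocampus replicate 1 or replicate 2, which leaves 1 wt array and so no spread among them, the Vgll3 difference was 1.63 or 1.18. One younger mutant array, hippocampus replicate 3, was also high at 1.80, and the other was at -0.03. Cpne2, of the calcium-binding copines, was at 0.29 and 0.22 against -0.34 and -0.17, a difference of 0.50 (SE 0.09). Gtsf1, with probe sets at 0.67 and 0.13, and Dnase1 were both at 0.40, and Prl2a1 was at 0.49.

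Ttr had the widest difference of the genes named in the hippocampus. It encodes transthyretin, the thyroid hormone carrier that the choroid plexus secretes. It was at -0.70 and -1.56 in mutants and 1.87 and 1.22 in wt mice, a difference of -2.68 (SE 0.31, limma adjusted p = 0.26), with all 4 probe sets between -2.89 and -2.43. Its adjusted p in limma was below 0.05 with the replicate number as a block (0.0466) and when the least variable genes were left out (0.017). With the numbers crossed between genotypes no gene passed in the hippocampus, with a smallest adjusted p of 0.366, nor after quantile normalization (0.379). Without wt hippocampus replicate 2, which leaves 1 wt array, the Ttr difference was -3.01. Over 21 choroid plexus genes, 17 were below 0 in the hippocampus with a median of -0.42, and the list's mean was 0.01 and -0.23 in mutants and 0.56 and 0.19 in wt mice. Among its members Aqp1, a water channel, was at -0.15 and -0.30 against 1.41 and 0.38, and Folr1, a folate receptor, at -0.30 and -0.23 against 1.32 and 0.23. In the cerebellum Ttr differed by -0.01 and the genotypes overlapped. Among the younger arrays it ranged from -3.02 to 2.00, and its mean difference there was 0.30. How much choroid plexus each sample held was not tested. Ch25h, which oxidises cholesterol, and Ctla2b were lower by differences of -0.54 and -0.70.

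**Figure D4:**
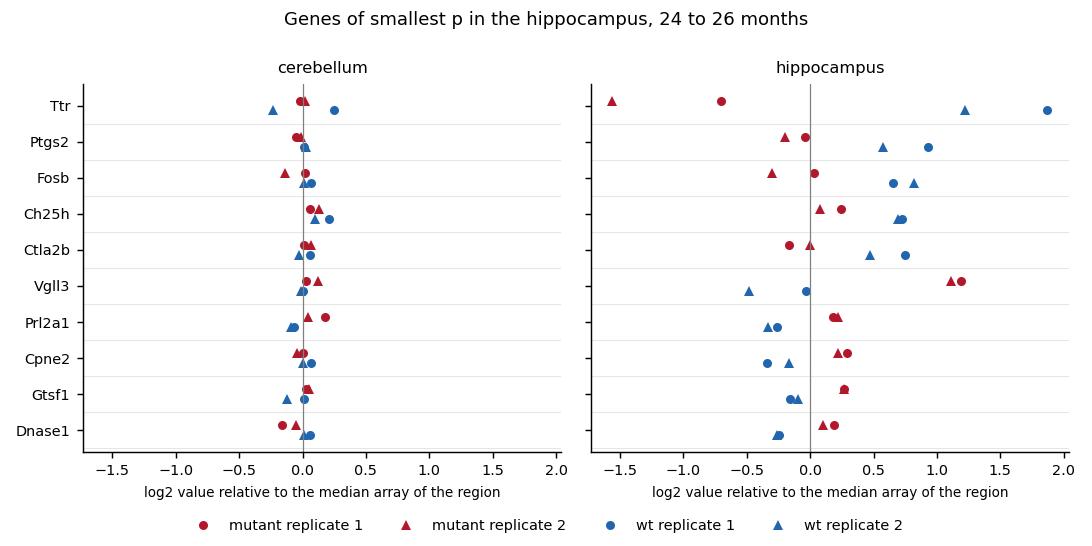
Values of the 10 genes of smallest p in the hippocampus, 5 in each direction, on the 8 older arrays. The horizontal axis is the log2 value relative to the median array of the region, colour is genotype and marker shape is the replicate number. In the right panel Ttr spans -1.56 to 1.87 and Vgll3 -0.48 to 1.19 with the genotypes apart, and in the left panel most of the same genes lie near 0.

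The effect of genotype was compared between the regions directly, as hippocampus minus cerebellum. limma called 0 of 18168 genes (0.0%), with 917 (5.05%) at an unadjusted p under 0.05 and a smallest adjusted p of 0.878. Of those 917 genes, 571 (3.14% of all genes) had the higher difference in the hippocampus and 346 (1.9%) the lower, a share of 62.3% higher, or 48.7% after quantile normalization. Without wt hippocampus replicate 2 the count of called genes was 199. Ttr (-2.67, SE 0.43) and Vgll3 (1.33, SE 0.19) had the widest differences among the 8 genes named by this comparison. In the other 6 the genotypes were apart in opposite directions in the 2 regions, which their choice by this difference favours and which held for 6.42% of all genes: Siglecf, an immune receptor, Fubp3, which binds DNA and RNA, Hoxb9, a homeobox gene, Zfp995, Pfn1 and Dnase1. Siglecf was at 0.21 and 0.37 in mutant cerebellum against -0.01 and -0.06 in wt, but at 0.00 and 0.00 in mutant hippocampus against 0.46 and 0.39 in wt, a difference between regions of -0.75 (SE 0.12, limma adjusted p = 0.88). Dnase1 differed by 0.54 between the regions. Across all genes, the differences in the 2 regions had a Pearson correlation of 0.0659 and a Spearman correlation of 0.0243, given as a description, since genes are not independent and the regions may share mice.

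The older arrays were then set against the younger ones, which share no array with them. For the difference of the genotype effect between the ages limma called 0 of 18168 (0.0%), with 500 (2.75%) at an unadjusted p under 0.05, 268 (1.48%) with the higher difference in older mice and 232 (1.28%) with the lower, while 50.7% of all genes had the higher one. Without older wt hippocampus replicate 2 it called 95, Alas2 among them at 0.89 (limma adjusted p = 0.0465). In the younger arrays Alas2 was the 1 gene called (0.0055% of genes), at -1.53 (SE 0.11, limma adjusted p = 0.00014), with 1.25, 0.98, 1.54 and 1.02 in wt and -0.19, -0.20, -0.29 and -0.66 in mutants (cerebellum then hippocampus, replicates 3 and 4). The difference in the older mice was smaller by 0.91 (SE 0.16, limma adjusted p = 1.0), and wt arrays held the larger part of that change, since their mean went from 1.20 to 0.33 while the mutants' means were -0.33 and -0.30. On younger wt hippocampus replicate 3 the blood cell list had a mean of 0.65, and its part in the difference between ages was not tested.

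The other genes named in older mice had mostly small differences in younger ones, which their choice by smallest p in the older arrays favours. Of the 12 named on the lower side 9 were also below 0 in younger mice, and of the 12 on the higher side 8 were above 0 there, but apart from Alas2, Dusp4 and Nab2 the younger differences lay between -0.11 and 0.14. Coq10b differed by 0.04 (SE 0.11) in the younger arrays. Of the 877 genes at an unadjusted p under 0.05 in older mice, 571 (65.1%) had the same sign in younger mice, against 57.4% of all genes, with a Pearson correlation of 0.317 against 0.0955 over all genes. Of the 1086 genes apart in both regions at the older age 52 were also apart the same way in the younger arrays. That is 4.79% of the older genes and 5.05% of the 1029 genes apart in the younger arrays. The 52 had to match in direction between the ages. The 1029 genes (5.66% of all) count both directions, so their share is not a like background for the 52. Genes are not independent replicates, so these shares are descriptions.

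Other genes named by the comparison of ages went in opposite directions, which their choice by this difference favours. Fosb was lower in older mutants at -0.49 and at 0.13 in younger ones, a difference of -0.61 (SE 0.13). Hes1, a Notch target, went from 0.16 to -0.22 and Pnoc, the precursor of nociceptin, from 0.34 to -0.16. Chrm3, a muscarinic acetylcholine receptor, went from -0.21 in younger to 0.24 in older mice, a difference of 0.45 (SE 0.11). Pwwp2b, Myog and Igkv5-39 differed between the ages by 0.31, 0.38 and -0.29. Each had a limma adjusted p of 1.0.

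**Figure D5:**
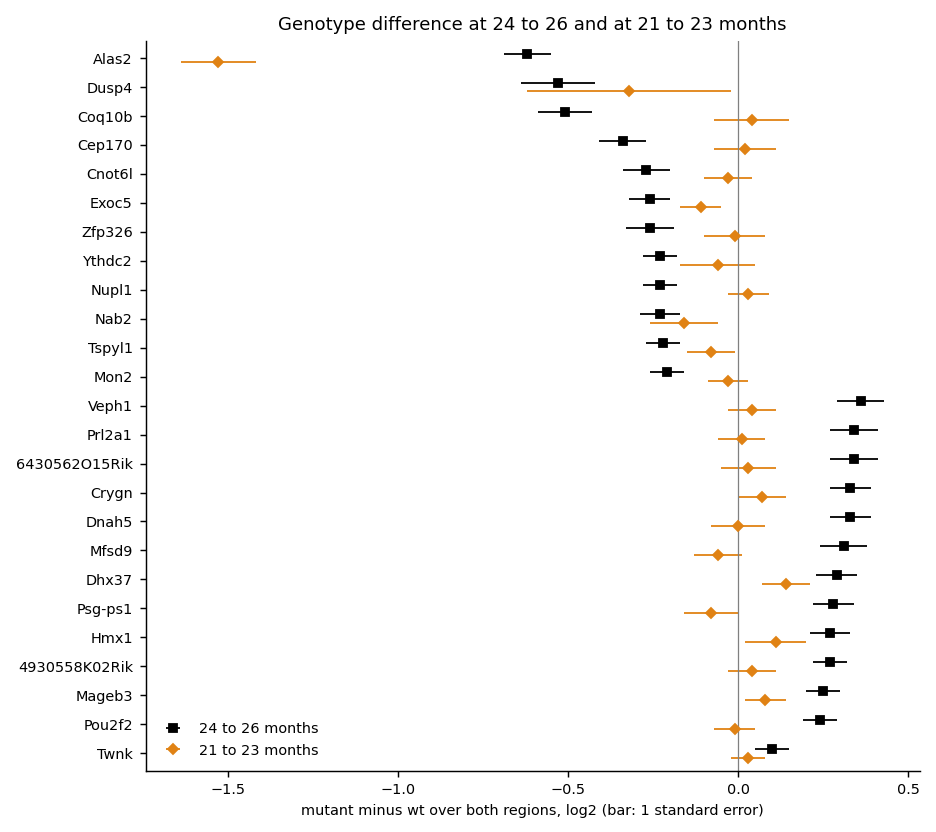
Difference between mutant and wt over both regions for the 24 genes of smallest p in older mice and Twnk, in older (black squares) and younger (orange diamonds) arrays. The horizontal axis is the log2 difference and bars are 1 standard error. The 24 genes were chosen in the older arrays, which favours smaller differences in the younger ones. Alas2 stands at -0.62 in older and -1.53 in younger mice, while Coq10b and Dnah5, at -0.51 and 0.33 in older mice, are at 0.04 and 0.00 in younger ones.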

How the data were processed

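Total RNA was hybridised to Affymetrix mouse arrays and processed with GCOS 4.0, per the submitters' processing notes. The deposited values are log values per probe set (taken as log2, the base is not stated), which the files show to be centred on the median of the 8 arrays of each region (within 1e-05 of 0 for 99.9% of probe sets). How the values were scaled before that centring was not stated. Samples labelled hippocampus by title, source and tissue were used as such, although their description names cerebellum.

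Of 45101 probe sets, 64 controls and 133 with an empty value were left out. The platform annotation of 2016 gave 1 symbol for 34843 of the rest, several for 931 and none for 9130, and probe sets of a gene were averaged into 18168 genes. The 8 older arrays were fitted with region and genotype in limma 3.58.1 (R 4.3.3), tested on simulated data. The regions, and their difference, used a mean per genotype and region, and the difference between ages used all 16 arrays, with Benjamini-Hochberg adjustment over 18168 genes. Same-numbered samples deviated together in some pairs of groups and not in others, so the numbers were not taken as pairs.

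Members, gene lists and rules were chosen with earlier results of these data known. Genes named are Twnk, the 12 of smallest p in each direction over both regions, 5 in each direction per region, 4 in each direction for each difference of effects, and the 3 of smallest p of each list. Other list members were named for their role, after their values were seen. Normalization, probe set summary, filter, variance model, array weights, blocks and left-out arrays were varied. Promoters are the 250 bases before the start in RefSeq's GRCm38.p6 annotation, searched on both strands. The tables used here hold no promoter for Dusp4 and Per2.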

Additional observations from a re-analysis of the deposited data

Results flagged for a closer look

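For each value, the 4 older arrays of each genotype were searched for an array whose gap to the nearest other, over the whole range, exceeded Dixon's critical value. Of 128 groups tested 5 met this, and chance picks about 1 in 20. Of these, 4 were wt hippocampus replicate 1 among the wt arrays: its list means were 1.75 for cerebellar granule neurons, 1.31 for Purkinje cells, 0.49 for reactive astrocytes and -0.53 for CA1 to CA3 pyramidal neurons. In the other, Crygn was at 0.16 on mutant hippocampus replicate 2, below the other 3 mutant arrays and above all wt arrays.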

How the results depend on the processing

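Over both regions and in the cerebellum limma called 0 genes under every alternative run. At an unadjusted p under 0.05 the counts were 877 and 603 as reported, and when 1 array was left out they ranged from 614 to 1331 and from 332 to 1148. In the hippocampus it called 2 genes, Ttr and Vgll3, when the least variable genes were left out, 1 gene with the replicate block (Ttr, -2.68, adjusted p = 0.0466), and 0 to 570 when arrays were left out. There, 570 came without wt hippocampus replicate 2 and 467 without both arrays of wt replicate 2, 7 without mutant hippocampus replicate 2, and 1 each without wt hippocampus replicate 1, both arrays of wt replicate 1 or both of mutant replicate 2. The difference between regions gave 0 to 199 calls and the difference between ages 0 to 95 when arrays were left out, the highest each time without wt hippocampus replicate 2. Where 1 array was left in a group, it was assumed to vary like the other groups. The replicate block gave 0 calls in the other 4 comparisons, and numbers crossed between genotypes, tried after seeing the data, gave 0 in all 5. Same-numbered mutant and wt arrays deviated with a correlation of -0.196 in the cerebellum and 0.189 in the hippocampus. Among the 4843 values of single genes and list medians 4747 were counted as the same. For a gene this means the same direction and the same side of an adjusted p of 0.05. For a list median it means a move smaller than the spread between replicates, whatever its sign. Of the others, 23 gene values came below an adjusted p of 0.05, mostly in fits that left 1 array in a group. A further 61 list medians moved beyond that spread and 12 gene values reversed. List medians that changed sign within the spread, such as those of Purkinje cells and cerebellar granule neurons, are not among the 12. When arrays were left out, the difference over both regions went from -0.01 to 0.20 for Primpol, -0.27 to 0.00 for Mpeg1, -0.24 to 0.04 for Cd14, -0.41 to 0.02 for Homer3, -0.50 to 0.08 for Lhx1 and -0.11 to 0.14 for Xist, which was at 0.00 by the median over probe sets. The causes were not tested. The values hold no level, so signal over background is unknown, and 2 arrays per group limit what could be called.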

Other observations

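Among genes induced by glucocorticoids, 9 of 19 were above 0 and 10 below over both regions, with a median of -0.05 against 0.02 for all genes. Sgk1, a kinase that acts on ion transport, was at -0.05 and 0.00 in mutant cerebellum against 0.09 and 0.09 in wt, and at -0.21 and -0.28 in mutant hippocampus against 0.20 and 0.12 in wt. The genotypes did not overlap in either region, by a difference of -0.26 (SE 0.07, limma adjusted p = 0.86), and the younger difference was -0.16. Angptl4, a lipase inhibitor, was at 0.19 (SE 0.07) and Mt2, a metallothionein, at -0.27 (SE 0.11).

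Interferon response and antigen presentation genes had 15 of 23 above 0 and a median of 0.05, with 2 of 23 higher at an unadjusted p under 0.05 (2.99% of all genes). Usp18, which removes ISG15 from proteins, differed by 0.42 (SE 0.15) and Ifi27 by 0.25 (SE 0.08), the latter also by 0.24 in the younger arrays. Of 23 antioxidant enzyme genes 14 were above 0 with a median of 0.02. Gstt1, a glutathione transferase, was at 0.25 (SE 0.09) in older and 0.25 in younger mice, while the reductases of thioredoxin and glutathione, Txnrd1 and Gsr, were at -0.16 (SE 0.06) and -0.21 (SE 0.09). None of these genes passed the test after adjustment.

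Probe sets with no symbol or several numbered 10061, of which limma called 0 over both regions, with 516 at an unadjusted p under 0.05.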
